A study of Homo sapiens with 4 samples.

Results

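ITIH6 and the other genes of the inter-alpha-trypsin inhibitor family were followed in RNA-seq of HEK293T cells, a transformed human embryonic kidney line, with and without MORC2, an ATPase that compacts DNA and silences genes. The family was taken as 7 genes, which are the 6 heavy chain genes ITIH1, ITIH2, ITIH3, ITIH4, ITIH5 and ITIH6 and the light chain gene AMBP, of 28775 genes in the deposited table. It was chosen by the measured rise of ITIH6 in MORC2 KO, whose log2 fold change ranked 7 among 16675 tested genes and 3 among the 98 genes with an adjusted p under 0.05 and a positive change. The other members entered by family name alone. The MORC2 KO group held 2 libraries, each from a bulk population of HEK293T cells electroporated with Cas9 protein and 1 of 2 gRNAs against MORC2 whose sequences overlap, and the WT group held 2 libraries of HEK293T cells that carry no edit. Neither group received any other treatment. Polyadenylated RNA was sequenced as read pairs, which the authors aligned to T2T-CHM13 and counted per gene.

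Inter-alpha-trypsin inhibitor is a serum proteoglycan in which heavy chains are joined to the small protein bikunin through a chondroitin sulfate chain. Bikunin carries Kunitz domains that block trypsin-like proteases, and it is cut from a precursor encoded by AMBP, together with the haem-binding alpha-1-microglobulin. The enzyme-like protein TSG-6, encoded by TNFAIP6, moves heavy chains from bikunin onto hyaluronan, a long sugar polymer of the extracellular matrix, and so helps to build hyaluronan-rich coats around cells. Hepatocytes are the main source of AMBP, ITIH1, ITIH2, ITIH3 and ITIH4, whereas ITIH5 and ITIH6 are not typical liver genes. All heavy chains share a VIT domain and a von Willebrand factor type A domain.

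Between 53970043 and 64312514 read pairs were counted per library. MORC2 itself had 3064 and 3637 counts in MORC2 KO replicates 1 and 2 and 5131 and 4669 in WT replicates 1 and 2. Its mean was 53.1 CPM in MORC2 KO and 87.0 in WT, so that much of the RNA remained (log2 fold change -0.71, SE 0.06, edgeR adjusted p = 1.37e-04). The paper measured the efficiency of the knockout on protein, by western blot, and these counts do not give the protein level. All 6 markers of HEK293 cells were among the tested genes, at very different levels. VIM was the highest with 264.4 CPM per kb in MORC2 KO and 260.5 in WT, and PAX2 the lowest with 0.271 and 0.292. Of 18 hepatocyte markers, 5 (APOB, APOC3, APOH, SERPINA1 and FGA) had no count in any library. The summed level of all 18 lay between 1.44 and 1.98 CPM in MORC2 KO and between 1.77 and 2.00 CPM in WT. Most of this sum came from the marker TF, with 0.836 and 1.20 CPM in MORC2 KO replicates 1 and 2 and 1.16 and 0.977 in WT replicates 1 and 2. CPM values are counts scaled to the TMM-adjusted size of the library, and CPM per kb are these values divided by the exonic length of the gene.

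ITIH6 (Entrez identifier 347365) lies on chromosome X of T2T-CHM13 from 54039799 to 54089136 on the minus strand. It had 110 and 141 counts in MORC2 KO replicates 1 and 2 and 27 and 29 counts in WT replicates 1 and 2. Both KO libraries lay above both WT libraries, and the values of the 2 gRNAs lay close together. On the CPM scale the level was 1.99 ± 0.208 with MORC2 KO and 0.499 ± 0.0644 for WT (SD, n = 2 each). The log2 fold change was 2.00 with an SE of 0.24, and no p-value is given since this contrast chose the gene. A rise of this kind may reflect more cells with ITIH6 RNA or more RNA per cell, which bulk RNA cannot tell apart. Weakly expressed genes tended to positive values, and the 1137 tested genes within 0.5 of the mean log2 CPM of ITIH6 had a median log2 fold change of 0.10, and their 5th and 95th percentiles were -0.32 and 0.63. Even in MORC2 KO the gene stayed weak, since 17.2% of the tested genes lay below it per kb, against 5.77% in WT.

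**Figure D1:**
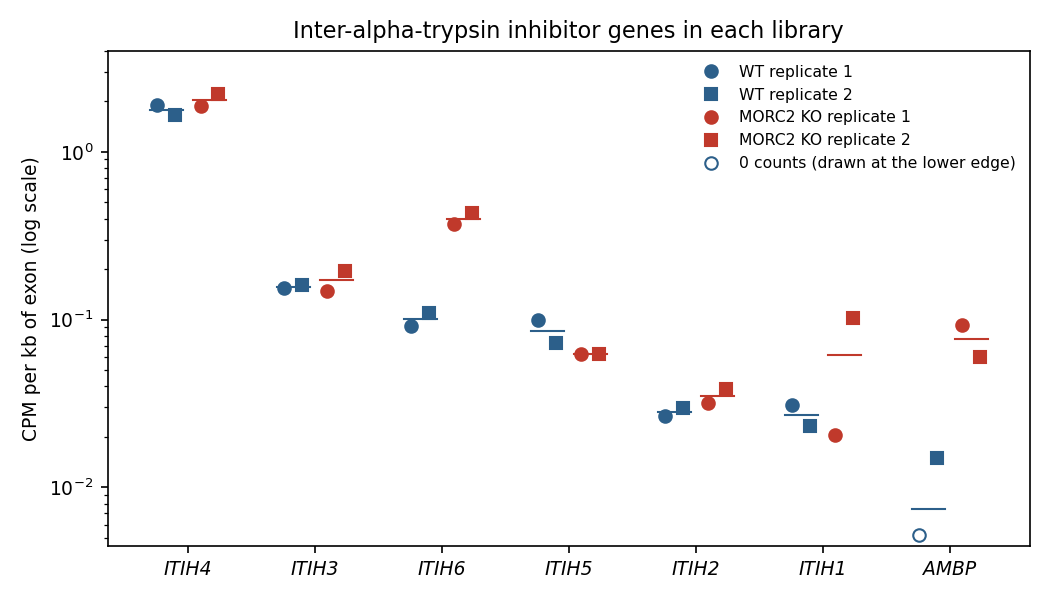
Level of each family member in each library, as CPM per kb of exon on a log scale, with WT in blue, MORC2 KO in red, circles for replicate 1, squares for replicate 2 and short lines for group means. ITIH4 stands highest near 2, ITIH6 moves from about 0.1 in WT to 0.4 in MORC2 KO, and the open circle marks AMBP at 0 counts in WT replicate 1.

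The exon structure sets ITIH6 apart within the family. The authors' table gives it 13 exons with 4964 bases in all, and its exon 8 alone is 2034 bases long, or 41.0% of the total. In no other member does an internal exon pass 994 bases, which is the value of ITIH5, and the heavy chain genes ITIH1, ITIH2, ITIH3 and ITIH4 spread their sequence over 21 to 24 exons with internal exons of at most 327 bases. An internal exon shorter than that of ITIH6 was the longest one in 93.8% of the 14761 tested genes with at least 3 exons. In GENCODE 29 on GRCh38, exon 8 runs from 54756965 to 54758998 on chromosome X and all of its 2034 bases are coding. No exon of ITIH6 overlaps an exon of another gene in the table, so its counts hold no pairs lost to an overlapping gene of that table.

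**Figure D2:**
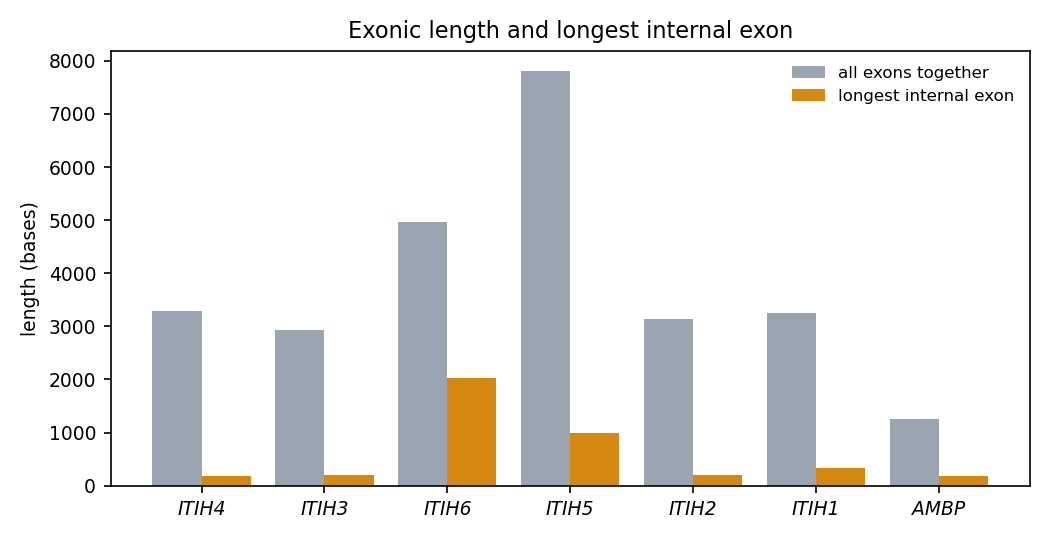
Summed exonic length (grey) and longest internal exon (orange) of each family member in bases, from the authors' annotation. The orange bar of ITIH6 reaches 2034 bases, and that of ITIH5, the next, 994.

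The promoters of the family also differ in sequence. RefSeq windows on GRCh38.p14, from 250 bases before to 50 after the start site, were found for 6 of the 7 genes, with 3 windows for ITIH1 and none for ITIH2. The start sites of the ITIH1 windows (52778486, 52779921 and 52779926) lie inside that gene, judged by the shift of ITIH3 and ITIH4 between GRCh38 and T2T-CHM13. Values of the ITIH1 windows are therefore not those of the sequence before its first exon. The 250 bases before the start are shown for ITIH6, for ITIH4, the member with the highest level, and for ITIH5, the member with the most CpG sites. They lie at chrX:54798256-54798505, chr3:52830673-52830922 and chr10:7666967-7667216, all on the minus strand, and are written 5′ to 3′ with each CpG, the site of DNA methylation, in capitals.
ITIH6: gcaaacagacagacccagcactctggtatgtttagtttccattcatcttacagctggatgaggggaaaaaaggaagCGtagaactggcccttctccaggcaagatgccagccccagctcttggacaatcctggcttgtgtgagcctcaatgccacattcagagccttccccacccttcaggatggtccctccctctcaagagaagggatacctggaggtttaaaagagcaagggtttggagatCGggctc
ITIH4: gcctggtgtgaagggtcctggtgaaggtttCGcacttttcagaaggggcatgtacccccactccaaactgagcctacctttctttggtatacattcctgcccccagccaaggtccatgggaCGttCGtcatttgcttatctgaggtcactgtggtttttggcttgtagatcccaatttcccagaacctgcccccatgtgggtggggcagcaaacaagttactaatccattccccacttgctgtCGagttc
ITIH5: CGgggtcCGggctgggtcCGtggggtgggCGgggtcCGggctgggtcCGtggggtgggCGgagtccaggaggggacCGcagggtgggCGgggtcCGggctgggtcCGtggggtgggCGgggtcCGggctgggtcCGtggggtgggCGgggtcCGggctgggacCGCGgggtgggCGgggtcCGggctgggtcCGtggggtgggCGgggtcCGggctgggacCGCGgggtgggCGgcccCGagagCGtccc
Only 2 CpG stand in the whole 300-base window of ITIH6, against a median of 14 over 35116 windows of 27305 genes, and 11.0% of these windows have fewer. ITIH4 has 5 CpG in its window, AMBP 6, ITIH3 10 and each ITIH1 window between 6 and 10, whereas ITIH5 has 34. GC content follows the same order at the ends, with 52.0% in ITIH6 and 81.7% in ITIH5. The GC box GGGCGG, searched on both strands like all motifs here, occurs 8 times in ITIH5 at a constant spacing of 29 bases and once in AMBP, and 45.0% of all windows hold it. The TATA box TATAAA is in no family window and in 11.5% of all windows. Its variant TTTAAA begins 32 bases before the start of ITIH6 and is in no other family window, and 12.2% of all windows hold it somewhere. Only these exact strings were searched. Similar ones, such as the TATAAG before the start of ITIH3, were not counted. CCAAT boxes, which 34.6% of the windows contain, were found 4 times in AMBP, once in ITIH4 and once in 1 window of ITIH1.

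Among the heavy chain genes besides ITIH6, ITIH1 and ITIH2 did not pass the filter on low counts and were not tested. Of the 3 further members that passed the filter on low counts (ITIH3, ITIH4 and ITIH5), none was called by edgeR at an adjusted p under 0.05, none had an unadjusted p under 0.05 and DESeq2 called none, beside 0.618% of all tested genes (0.588% higher and 0.0300% lower in MORC2 KO). The contrast of this background is the one that chose ITIH6, and nothing is read from the comparison of the shares. In ITIH6 and ITIH5, 2 of the 4 tested members, the libraries of the genotypes did not overlap, which held for 47.5% of all tested genes.

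ITIH4 encodes an acute-phase plasma protein that, unlike the classical heavy chains, is not bound to bikunin, and it was the most abundant member. ITIH4 counts were 370 and 479 in the KO libraries and 369 and 290 in the WT libraries. The first KO library lay just below the first WT library, so the groups overlapped. The log2 fold change was 0.21 (SE 0.12, edgeR adjusted p = 0.461) and ran from 0.09 without MORC2 KO replicate 2 to 0.30 without WT replicate 1. Of its exonic bases, 5.64% overlap the antisense gene ITIH4-AS1, which had at most 2 counts in a library.

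ITIH3, a classical heavy chain gene, had 26 and 38 counts in the KO libraries and 27 and 25 in the WT libraries. Only MORC2 KO replicate 2 stood apart from the other libraries. The log2 fold change of 0.14 (SE 0.34, edgeR adjusted p = 0.888) turned to -0.08 without that library and to -0.01 once a trend on abundance was removed.

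ITIH5, which is expressed in many tissues outside the liver, was the only tested member with a negative value. It had 29 and 32 counts in the KO libraries and 46 and 30 in the WT libraries. Scaled to library size the KO libraries were nearly equal, at 0.485 and 0.484 CPM, and both WT libraries were higher, at 0.773 and 0.564 CPM. The log2 fold change of -0.47 had an SE of 0.32 and did not pass the test (edgeR adjusted p = 0.511). It was -0.22 without WT replicate 1.

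**Figure D3:**
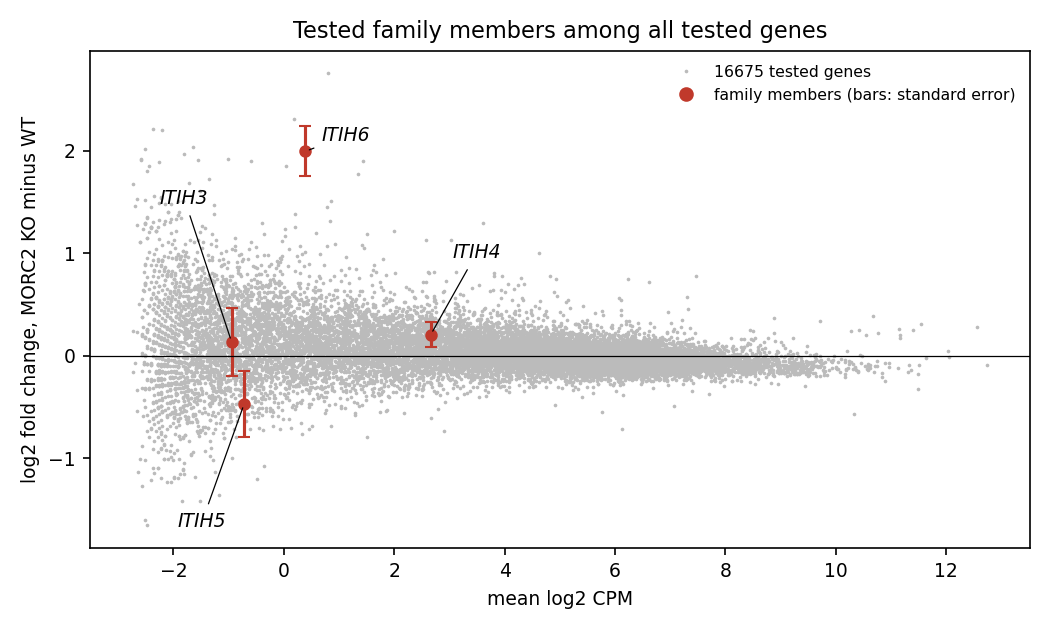
Log2 fold change of MORC2 KO minus WT against mean log2 CPM for 16675 tested genes (grey), with the 4 tested family members in red and bars for the standard error. ITIH6 stands at 2.00 above the cloud, while ITIH3, ITIH4 and ITIH5 lie within it.

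ITIH1, ITIH2 and AMBP were below the filter and are described by their counts. AMBP, the bikunin precursor gene, had 7 and 5 counts in the KO libraries and 0 and 1 in the WT libraries. Relative to the summed library totals this is a ratio of 11.1 of MORC2 KO to WT, and its 95% interval (Clopper-Pearson) of 1.64 to 472.4 covers counting error only. The hepatocyte gene ALB had 9 and 14 counts in the KO libraries and 6 and 10 in the WT libraries, and the part of other hepatocyte genes in the AMBP values was not tested. ITIH1 had 4 and 22 counts in the KO libraries and 6 and 4 in the WT libraries. MORC2 KO replicate 2 alone was high, and replicate 1 was no higher than the WT libraries. ITIH2, the partner of ITIH1 in the serum complex, stayed between 5 and 8 counts in all libraries, with 6 and 8 in the KO libraries and 5 and 5 in the WT libraries. These 3 genes together give too few reads to measure a difference of moderate size.

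Ordered by level per kb in WT, the family runs ITIH4, ITIH3, ITIH6, ITIH5, ITIH2, ITIH1 and AMBP. ITIH4 was at 1.77 ± 0.162 CPM per kb (SD, n = 2), more than any other member in every library. ITIH3 followed with 0.157 ± 0.00385 (SD, n = 2). ITIH6 with 0.101 ± 0.0130 and ITIH5 with 0.0857 ± 0.0190 CPM per kb (SD, n = 2) overlapped in WT, as did ITIH2 with 0.0283 ± 0.00223 and ITIH1 with 0.0271 ± 0.00560. AMBP came last with 0.00744 ± 0.0105. In MORC2 KO, ITIH6 moved to the second place with 0.400 ± 0.0419 CPM per kb (SD, n = 2), above ITIH3 with 0.172 ± 0.0338 and below ITIH4 with 2.05 ± 0.229. AMBP, ITIH5 and ITIH1 then lay at 0.0764, 0.0621 and 0.0617 CPM per kb with overlapping libraries, and ITIH2 at 0.0352.

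The family is spread over 4 chromosomes, and its genes in clusters were examined with their surroundings. ITIH1, ITIH3 and ITIH4 lie side by side on chromosome 3 of T2T-CHM13 between 52810510 and 52863582, ITIH5 and ITIH2 on chromosome 10 between 7560192 and 7750283, AMBP on chromosome 9 between 126258798 and 126276960, and ITIH6 alone on chromosome X. Of the 68 other genes within 500 kb of a member, 49 were tested, and 8 of these had an unadjusted p under 0.05 in edgeR. The share of all tested genes under that value was not counted, so nothing is read from this count or from the like counts below. None of the 49 was called, and their median log2 fold change was -0.03 against 0.01 over all tested genes. DESeq2 likewise called none of them, and leaving out MORC2 KO replicate 1 gave 13 of 49 (4 higher and 9 lower), or 26.5%, where that fit called 20.5% of 17129 tested genes.

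Around ITIH6, no tested neighbour was called (2 had an unadjusted p under 0.05 in edgeR, TSR2 and APEX2). MAGED2, a member of the MAGE family, begins 9492 bases from ITIH6 and was expressed far more strongly, with 7054 and 7368 counts in the KO libraries and 6672 and 6073 in the WT libraries. Its log2 fold change was 0.02 (SE 0.06, edgeR adjusted p = 0.903). GNL3L, a nucleolar GTPase gene, is the nearest gene on the other side at 181650 bases, and its value was -0.05 (SE 0.06, edgeR adjusted p = 0.737). All 9 tested neighbours within 500 kb lay between -0.15 and 0.47. The value of 0.47 belongs to PFKFB1, which makes an enzyme of glycolysis control and had 38 and 33 counts in the KO libraries and 23 and 23 in the WT libraries (edgeR adjusted p = 0.541). TSR2 and APEX2 were called without MORC2 KO replicate 1, with log2 fold changes of -0.21 and -0.20, which is 2 of 9 neighbours or 22.2% beside the 20.5% of all tested genes in that fit. The PAGE genes of the same region, which are typical of testis and tumours, had between 0 and 2 counts in every library.

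**Figure D4:**
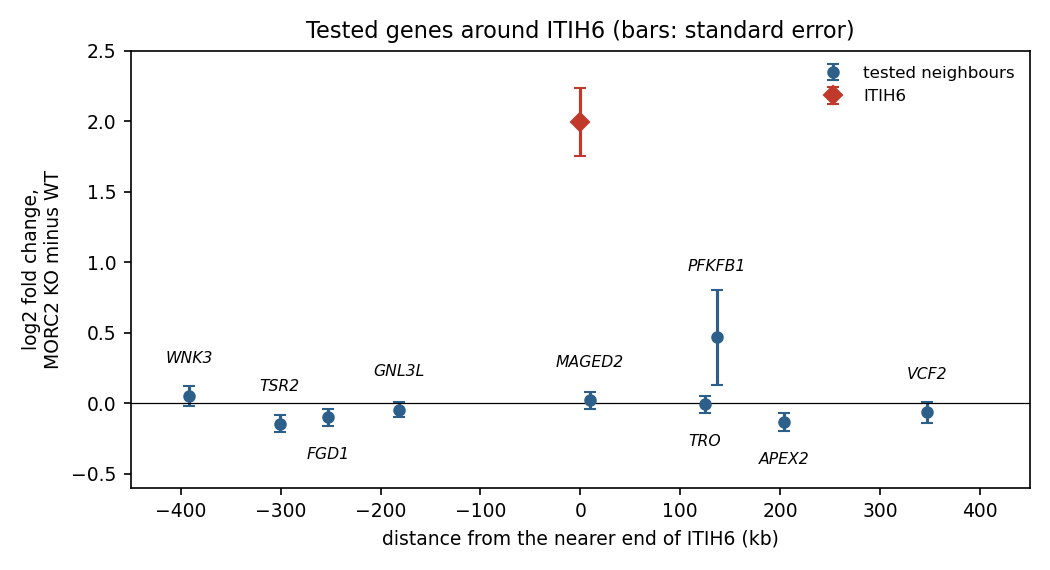
Log2 fold change of MORC2 KO minus WT for ITIH6 (red diamond) and the 9 tested genes within 500 kb (blue), against the distance from the nearer end of ITIH6 in kb, with bars for the standard error. The neighbours lie between -0.15 and 0.47, and ITIH6 at 2.00.

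Next to the members on the autosomes, no tested gene was called either. NEK4, a kinase gene beside ITIH1, had a log2 fold change of -0.05, KIN beside ITIH2 one of -0.08, and ZNF618 and KIF12 on the sides of AMBP 0.02 and -0.12. The edgeR adjusted p-values of these 4 genes were 0.732, 0.652, 0.909 and 0.890. The gene ITIH4-AS1 (2 and 1 counts in MORC2 KO, 0 and 1 in WT), the readthrough gene STIMATE-MUSTN1 (4 and 2 against 3 and 3) and LINC02642 (0 in all libraries) were too low to be tested. MUSTN1, at the same distance of 2550 bases from ITIH4 as STIMATE-MUSTN1, was tested and not called. It had 24 and 53 counts in MORC2 KO and 37 and 33 in WT (log2 fold change -0.03, SE 0.35, edgeR adjusted p = 0.978).

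Genes that work with the family in the hyaluronan matrix were examined next, as a list of 27 genes with synthases, binding proteins and hyaluronidases. Of 19 tested, none was called by edgeR in either direction, 1 had an unadjusted p under 0.05 (HMMR), 10 had a positive value and the median log2 fold change was 0.01. Over all tested genes 8593 of 16675 had a positive value, and a lean of any list in direction was not tested. TNFAIP6, whose product carries out the heavy chain transfer, was nearly silent, with 1 and 0 counts in the KO libraries and 1 and 0 in the WT libraries. Among the synthases HAS3 carried most of the RNA, with 115 and 129 counts in the KO libraries and 130 and 103 in the WT libraries, while HAS1 and HAS2 had at most 4 counts in a library. HMMR, a hyaluronan-binding protein of the mitotic spindle, and the hyaluronidase HYAL2 had the highest levels per kb. The log2 fold change was 0.18 for HMMR (SE 0.06, edgeR adjusted p = 0.212) and -0.05 for HYAL2 (SE 0.09, edgeR adjusted p = 0.827).

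The next list covers chondroitin sulfate synthesis, with enzymes and transporters. It is not limited to those that build the chain between bikunin and the heavy chains. Of its 27 genes, 26 were tested. None was called by edgeR, 4 had an unadjusted p under 0.05 (B3GALT6, CHPF2, CHST14 and PAPSS1), 17 had a positive value and the median was 0.03. Positive values were held by 8593 of all 16675 tested genes. CHPF, a chondroitin polymerising factor, and PAPSS1, which makes the sulfate donor, stood highest per kb. The former had a log2 fold change of 0.10 (SE 0.06, edgeR adjusted p = 0.452) and the latter -0.13 (SE 0.06, edgeR adjusted p = 0.339). The genes of this list serve many other proteoglycans too.

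Among other genes with the Kunitz domain of bikunin, 8 of 17 were tested and none was called by edgeR, with 2 positive values and a median of -0.07. Beside this, 8593 of all 16675 tested genes had a positive value. In edgeR 4 had an unadjusted p under 0.05 (SPINT2, TFPI2, COL7A1 and TFPI), again without the share over all tested genes beside it. The amyloid precursor gene APP and its relative APLP2 led in level, with log2 fold changes of -0.07 and -0.08 (edgeR adjusted p = 0.635 and 0.604). SPINT2, a membrane-bound inhibitor of trypsin-like proteases, had 73 and 56 counts in the KO libraries and 97 and 93 in the WT libraries. Both KO libraries were the lower ones, yet the log2 fold change of -0.71 (SE 0.23) did not pass the test (edgeR adjusted p = 0.229). TFPI2, another Kunitz domain gene, had 166 and 193 counts in the KO libraries and 219 and 217 in the WT libraries, with a log2 fold change of -0.44 (SE 0.15, edgeR adjusted p = 0.229). For TFPI the value was positive, at 0.23 (SE 0.10, edgeR adjusted p = 0.314). COL7A1, a collagen gene of the skin basement membrane with a Kunitz domain, had a log2 fold change of 0.36 (SE 0.12, edgeR adjusted p = 0.232).

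The relatives with the VIT domain of the heavy chains comprise PARP4, VWA5A, VWA5B1 and VWA5B2, of which 3 were tested and none was called by edgeR, with 1 at an unadjusted p under 0.05 (VWA5A). PARP4, the vault ADP-ribosyltransferase, had a log2 fold change of 0.04 (SE 0.06, edgeR adjusted p = 0.811) and VWA5B2 one of -0.01 (SE 0.19, edgeR adjusted p = 0.991). VWA5A had 35 and 47 counts in the KO libraries and 60 and 58 in the WT libraries, with a log2 fold change of -0.69 (SE 0.26, edgeR adjusted p = 0.282).

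A list of 18 protease genes included trypsins, elastases, plasmin and its activators, and a convertase, not all of which bikunin blocks. Of these, 7, including the trypsin gene PRSS1 and the neutrophil elastase gene ELANE, had no count in any library, and 3 passed the filter on low counts. FURIN, the convertase that cleaves many secreted precursors, PLAT, the tissue plasminogen activator, and PLAU, its urokinase relative, were the 3 tested genes, and none of them was called by edgeR or had an unadjusted p under 0.05. FURIN had a log2 fold change of 0.13 (SE 0.07, edgeR adjusted p = 0.432) and PLAT one of -0.07 (SE 0.09, edgeR adjusted p = 0.776). Over these 5 lists no gene was called in the full comparison by edgeR or DESeq2, and 5 of 60 (8.33%) were without MORC2 KO replicate 1, where 20.5% of all tested genes were called. These were FURIN, COL7A1 and HMMR on the higher side and SPINT2 and HYAL2 on the lower side.

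**Figure D5:**
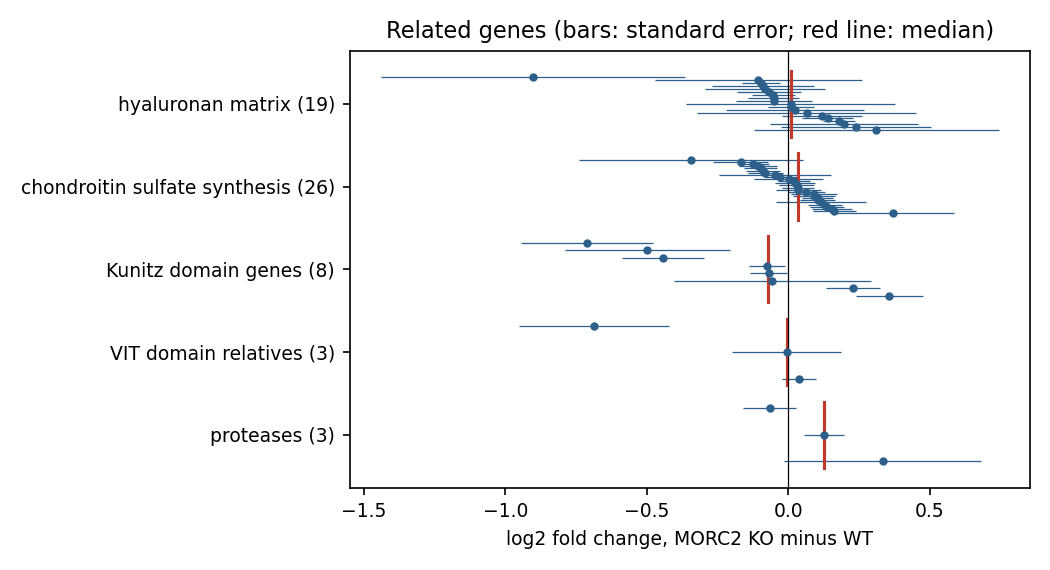
Log2 fold change of MORC2 KO minus WT for the tested genes of 5 related lists, 1 point a gene with a bar for the standard error, the number tested in parentheses and the median as a red line. The medians lie between -0.07 and 0.13.

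Outside the family, the 5 genes with the pattern most like that of ITIH6 were found by the Euclidean distance between log2 CPM values over the 4 libraries, each centred on the mean of the gene. They were MIR3171HG (distance 0.184), ZNF22-AS1 (0.265), AHI1-DT (0.402), TYRP1 (0.419) and COL6A4P1 (0.458). The first 3 are long non-coding RNA genes, TYRP1 encodes a melanosome enzyme, and COL6A4P1 is a transcribed pseudogene. MIR3171HG had 57 and 65 counts in the KO libraries and 14 and 15 in the WT libraries. TYRP1 had 88 and 136 in the KO libraries and 22 and 18 in the WT libraries, with more difference between the KO libraries than in ITIH6. AHI1-DT was the weakest, with 14 and 23 counts in the KO libraries and 4 and 3 in the WT libraries. None of the 5 lies on chromosome X. With 4 libraries, and ITIH6 chosen for its rise, this likeness restates which genes were higher in MORC2 KO by a similar factor.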

How the data were processed

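RNA-seq of 2 MORC2 KO and 2 WT samples of HEK293T cells was analysed, grouped by the sample labels. The deposited table holds raw counts, 1 for each read pair assigned to a gene. The authors aligned the reads to T2T-CHM13 with Subread 2.0.6 and counted them with featureCounts 2.0.6 on RefSeq genes. The command in the file counts multi-mapping pairs, ignores strand and drops pairs over several genes, so reads shared by similar genes are less certain. The table had 0 columns of other samples. Symbols were matched by Entrez identifier for 28763 of 28775 genes.

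Genes were filtered with filterByExpr, scaled with TMM and compared by quasi-likelihood F-tests in edgeR 4.0.16 (legacy setting, R 4.3.3), with Benjamini-Hochberg adjustment over the 16675 genes left and a threshold of 0.05. SE is the log2 fold change over the square root of F. Log2 CPM used a prior count of 2. Replicates differed beyond counting noise, with chi-square values per degree of freedom of 17.9 (KO) and 6.94 (WT). Alternatives were DESeq2 1.42.0, other scaling, no filter, loess offsets (span 0.3), the newer edgeR form, the replicate number as a block, leaving out each sample and other distances. The fit was first checked on simulated counts in which 200 genes changed. P-values cover the spread between these samples.

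The members and lists were chosen with earlier results of these data known. Genes named are MORC2, the members, the called list genes and the 2 list genes highest per kb, the nearest and called neighbours and the 5 genes most like ITIH6. TNFAIP6, HAS1, HAS2, HAS3, SPINT2, TFPI2, COL7A1, VWA5A, TFPI, B3GALT6, CHPF2, CHST14, ALB, DNAH1, SEMA3G, PRSS1, ELANE, PLAU, PFKFB1, TSR2, APEX2, NEFM, KRT18, KRT8 and PAX2 were named after their values were seen. The same holds for MUSTN1 and TF.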

Additional observations from a re-analysis of the deposited data

How the results depend on the processing

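ITIH6 kept a log2 fold change between 1.86 and 2.13 over 11 alternatives, and MORC2 stayed between -0.76 and -0.67 and under 0.05 in each (edgeR or DESeq2 adjusted p from 2.97e-23 to 2.91e-04). No other tested family member was called in any of them. Adjusted p-values lay between 0.0883 and 1 for ITIH4, 0.657 and 1 for ITIH3 and 0.416 and 0.983 for ITIH5, whose log2 fold change ran from -0.67 to -0.22. In the fit without a filter, AMBP had an unadjusted p of 0.0338 and an adjusted p of 0.308 in edgeR. The number of genes called higher and lower was 98 and 5. Without the filter it was 463 and 182, and 2 list genes (SPINT2 and COL7A1) and 1 neighbour (DNAH1) were called. With the replicate block it was 237 and 42, with no list gene or neighbour called. The replicate numbers do not pair the samples by their labels, and the deviations of libraries with the same number had a correlation of -0.12 across genes. Crossed pairing, chosen after seeing the data, gave 903 and 809. DESeq2 called 17 lower. With each sample left out the numbers ran from 88 to 1397 higher and from 9 to 2117 lower, with 0 to 5 list genes and 0 to 13 neighbours called. The highest numbers of each came without MORC2 KO replicate 1. Without MORC2 KO replicate 2, 142 genes were higher and 30 lower, without WT replicate 1 149 and 9, and without WT replicate 2 88 and 14, and 1 neighbour (SEMA3G) was called without MORC2 KO replicate 2. A fit that leaves 1 library in a genotype assumes that it varies like the other group. The cause of these shifts was not tested. Neighbours within 100 kb or 1 Mb gave no other call. With 2 libraries per genotype, counts under about 50 limit what can be seen in ITIH1, ITIH2, ITIH3, ITIH5 and AMBP.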

Other observations

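Among the marker genes, NEFM, a neurofilament gene that HEK293 cells express, had 491 and 585 counts in MORC2 KO and 391 and 319 in WT. Both KO libraries were higher, with a log2 fold change of 0.44 (SE 0.11, edgeR adjusted p = 0.118). Of the 6 HEK293 markers, NEFM and VIM had positive values and NEFL, KRT18, KRT8 and PAX2 negative ones between -0.15 and -0.07, with a median of -0.08 over all 6 and none called.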
